A study of Mus musculus with 2 samples.

Results

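The small leucine-rich proteoglycans examined here were 9 genes, decorin (Dcn), lumican (Lum), biglycan (Bgn), fibromodulin (Fmod), osteoglycin (Ogn), Prelp, keratocan (Kera), osteomodulin (Omd) and asporin (Aspn). They were taken by symbol from the 31053 genes of the count matrices. The rule uses no measured value, although the members were chosen with earlier results of these data known. All 9 had at least 1 unique molecular identifier (UMI, a count of 1 captured transcript) among the kept cells of each library. The cells came from mouse hearts collected at postnatal day 1 (P1) or postnatal day 7 (P7), with 1 library per age made from 3 pooled hearts of a single litter. Digestion in Collagenase II lasted 20 min at P1 and 45 min at P7, and live cells that excluded 7-AAD were sorted before 3′ single-cell RNA-seq. The labels gave no treatment and no genotype. Reads of the female-specific transcript Xist and of 4 Y-linked genes showed that the P1 library came from females (57336 against 2 UMIs) and the P7 library from males (12 against 18039 UMIs), so age, sex and digestion time cannot be told apart in any comparison of P1 with P7.

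Small leucine-rich proteoglycans are secreted matrix proteins built on a core of leucine-rich repeats, most of which carry chondroitin, dermatan or keratan sulphate chains. They bind fibrillar collagens and set the diameter and spacing of the fibrils, and several of them also bind growth factors of the TGF-β family. In the heart they are known from the interstitial matrix, the vessel walls and the valve leaflets. By sequence, Dcn, Bgn and Aspn form class I of the family, Fmod, Lum, Prelp, Kera and Omd class II, and Ogn belongs to class III.

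With 1 library per age there was no replicate, and no test of P1 against P7 was possible. Each ratio is therefore given as log2 of P1 over P7 with a 95% interval that covers counting error only, and a member was counted as past 2-fold when the ratio was at least 2-fold in either direction and its UMIs summed to at least 20 over both libraries. Levels are CPM, the UMIs of a gene per 1000000 UMIs of the same cells. The kit captures transcript ends, so CPM counts transcripts and is not divided by gene length. After filtering, 4991 P1 cells (median 10875 UMIs) and 8511 P7 cells (median 10104 UMIs) were kept, and 18 barcodes occurred in both libraries, 13 of them among kept cells. Cells were gated on raw UMIs of marker genes, with Pdgfra for fibroblasts (944 cells at P1 and 1928 at P7), Wif1 with Scx for valve-type cells (88 and 70), Myh11 for smooth muscle (130 and 369), Kcnj8 for pericytes (184 and 328), Upk3b for epicardium (47 and 21) and Cdh5 for endothelium (1619 and 3195). A leukocyte gate on Ptprc (323 and 459 cells) served as the background class, since leukocytes are not a main source of these proteins. Whether its UMIs of the members came from free RNA was not tested. Of the 5 fibroblast markers that were not used for gating, 4 were highest in the fibroblast gate in each library, the exception being Col3a1 at P1 and Col1a1 at P7. Of the 5 further valve-type markers, 4 were highest in the valve-type gate at P1 and 3 at P7. The exceptions were Cilp2 at P1 and Adamts19 and Tnmd at P7. Transcripts of 5 cardiomyocyte markers, summed, were low in the fibroblast gate (180 and 83.5 CPM), and cardiomyocytes were not gated.

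Cells with UMIs of lung stroma or alveolar markers made up 20.2% of the fibroblast gate at P1 and 1.92% at P7. Leaving them out moved the log2 ratio of Dcn in that gate from -0.87 to -0.86 and that of Lum from -0.96 to -0.97. In the smooth muscle gate (23.8% and 5.96% of cells) the same step moved Dcn from -0.94 to -1.501 and Lum from -0.07 to -1.04, past 2-fold towards P7. The remaining levels were 131 and 372 CPM for Dcn and 30.3 and 63.1 CPM for Lum. At P7 neither was above the whole leukocyte gate, which held Dcn at 114 and 377 CPM (log2 -1.72) and Lum at 21.9 and 70.6 CPM (log2 -1.68). The share was highest in the epicardium gate, at 66.0% of 47 cells and 28.6% of 21 cells, and values without these cells are given for that gate where its members are described. In the endothelium gate it was 33.7% at P1 and 16.4% at P7. In the epicardium gate at P7 all 5 alveolar markers had 0 UMIs, so the share there rests on the stroma list (Hoxa5, Hoxa4, Tbx4, Hoxb5 and Hoxb4). That list summed to 191 CPM at P1 and 57.5 CPM at P7 in this gate, beside 9.92 CPM of alveolar markers at P1. Whether these cells came from lung was not tested.

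The fibroblast gate held the largest share of the transcripts of most members, and the order of the gates differed between members. The fibroblast gate held 56.4% of all Dcn UMIs of kept cells at P1 and 65.0% at P7, and the corresponding shares were 67.6% and 69.2% for Ogn and 56.6% and 63.3% for Aspn. For Bgn and Omd the share was lower at P1, at 38.7% and 48.6%, and at P7 it was 51.8% and 57.8%. Fmod had 15.2% of its UMIs in the fibroblast gate at P1 and 3.3% at P7, against 30.1% and 48.0% in the valve-type gate, which held only 88 and 70 cells. Cells in no gate, 1444 at P1 and 1738 at P7, held 39.6% and 25.6% of the Fmod UMIs. Fmod stood there at 96.2 and 46.4 CPM (log2 1.05). For Dcn the share in no gate was 21.9% and 21.6%. Of the 36 Kera UMIs at P7, 23 lay in the valve-type gate and 3 in the fibroblast gate. Of the 8 members with enough UMIs at P1, all 8 were at least 4-fold higher in the fibroblast gate than in the endothelium gate, as were 9.76% of all genes measured. At P7 the count was 7 of 8, without Fmod, beside 11.3% of all genes. At P1 the Fmod call depended on fibroblast-gate cells with Wif1 or Scx UMIs, which held 319 of its 395 UMIs. The other fibroblast-gate cells held Fmod at 5.16 CPM, against 1.72 CPM in the endothelium gate. In both libraries Lum, Ogn and Aspn were highest in the fibroblast gate and Dcn, Bgn, Fmod, Prelp, Kera and Omd in the valve-type gate. The intervals of the first and second gates overlapped for Lum and Kera at P1 and for Omd in both libraries, so their top gate was not resolved there.

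**Figure D1:**
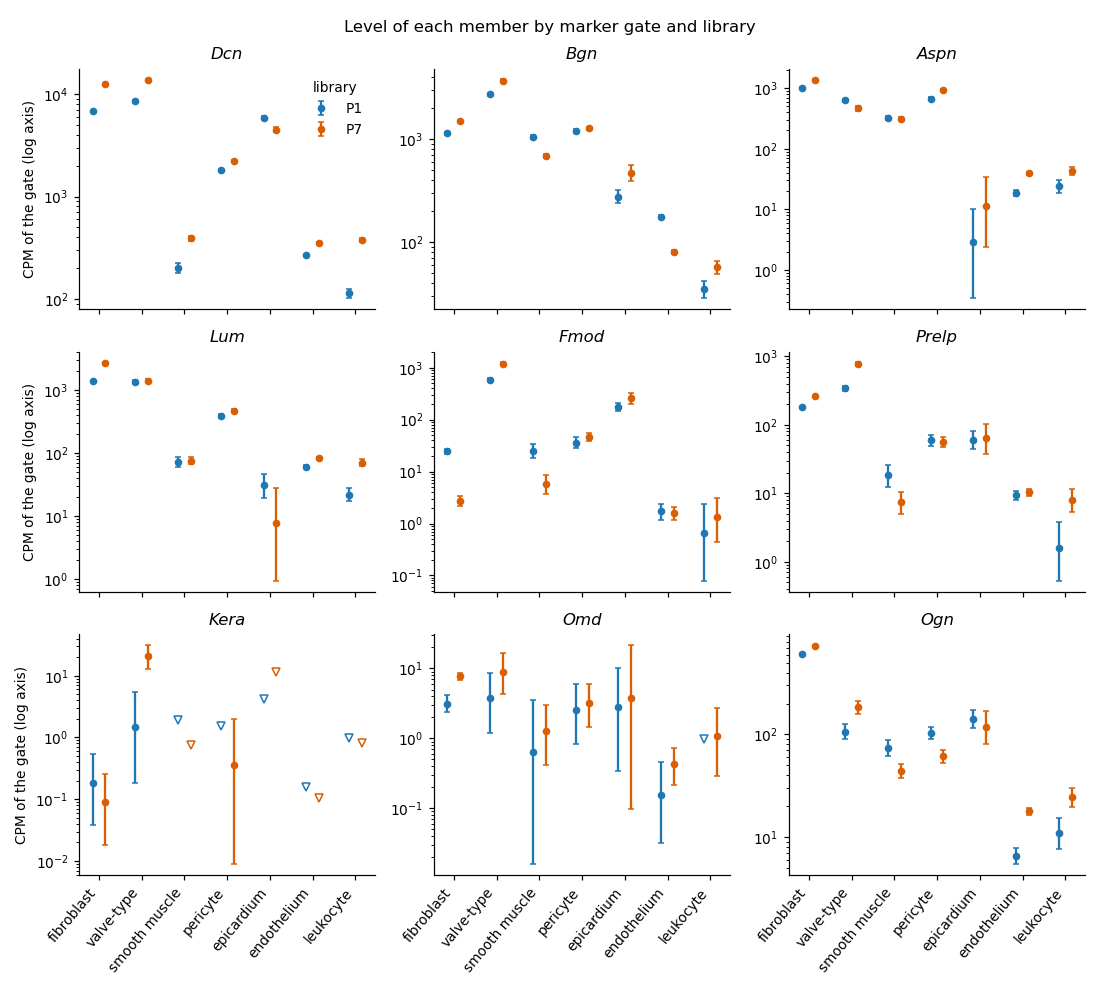
Level of each member in 7 marker gates (x axis) as CPM of the gate on a log axis (y axis), with P1 in blue and P7 in orange. Points are summed UMIs scaled to CPM, bars are exact Poisson 95% intervals, and open triangles mark the level of 3 counts where a gate had 0 UMIs. Dcn stands at 6844 and 12516 CPM in the fibroblast gate and at 5896 and 4494 CPM in the epicardium gate, whereas Lum and Aspn drop to 31.2 CPM or less in the epicardium gate.

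Among the class I genes, Dcn, whose product binds collagen fibrils and limits their lateral growth, was the member with the most UMIs. In the fibroblast gate it stood at 6844 CPM at P1 and 12516 CPM at P7, which is 1.83-fold higher at P7 (log2 -0.87, interval -0.88 to -0.86). In the valve-type gate it stood at 8620 and 13628 CPM, also higher at P7 (log2 -0.66). In the epicardium gate the order was turned, with 5896 CPM at P1 and 4494 CPM at P7 (log2 0.39, interval 0.30 to 0.49). Without the cells with lung markers it stood at 5341 and 4190 CPM (log2 0.35) in the 16 and 15 remaining cells. The epicardium gate was thus the third highest for Dcn in both libraries, well above the pericyte gate at 1802 and 2222 CPM. Nearly every fibroblast carried the transcript. After each cell had been thinned to 2000 UMIs, Dcn was found in 98.0% of fibroblasts at P1 and 99.9% at P7 (98.7% and 99.9% unthinned), against 12.3% and 21.7% of leukocytes (30.3% and 56.0% unthinned). Median depths were 15945.5 and 17078.5 UMIs for fibroblasts and 7693 and 6363 for leukocytes. The leukocyte level itself was 114 CPM at P1 and 377 CPM at P7, 3.30-fold higher at P7. Few leukocytes carried most of it, since the 33 highest of 323 cells held 81.6% of the UMIs at P1 and the 46 highest of 459 held 81.3% at P7, and single cells held 109 of 354 and 312 of 1408 UMIs. The endothelium gate, at 268 and 352 CPM, was not above the leukocyte gate at P7, and its Dcn is not told apart from the background class there.

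Bgn, the X-linked sister of Dcn that carries chondroitin or dermatan sulphate chains, had a wider distribution across the mural cells. Its levels were 2740 CPM at P1 and 3682 CPM at P7 in the valve-type gate, 1159 and 1508 CPM in the fibroblast gate, 1203 and 1275 CPM in the pericyte gate and 1044 and 684 CPM in the smooth muscle gate. In the valve-type gate it was thus more than 2-fold above the fibroblast gate in both libraries (log2 1.24 and 1.29). Bgn was higher at P7 in fibroblasts (log2 -0.38) and valve-type cells (log2 -0.43) and higher at P1 in smooth muscle (log2 0.61, interval 0.52 to 0.70). The X-linked genes as a whole had a median log2 ratio of 0.05 in the fibroblast gate, where all genes had 0.03. The largest difference for Bgn lay in the endothelium gate, with 3393 UMIs (177 CPM) at P1 and 2284 UMIs (80.5 CPM) at P7, a 2.20-fold higher level at P1 (log2 1.13, interval 1.06 to 1.21). After thinning, Bgn was found in 16.8% of endothelial cells at P1 and 7.93% at P7 (37.5% and 19.1% unthinned), against 6.82% and 5.44% of leukocytes (15.5% and 17.9% unthinned). Per 1000 Dcn UMIs, the endothelium gate held 659 Bgn UMIs at P1 and 229 at P7, while the leukocyte gate held 305 and 151. Both endothelial ratios to Dcn lay above those of the leukocytes, with counting intervals that did not overlap. At P7 the thinned shares did not set the gates apart, with overlapping intervals (7.00% to 8.94% against 3.48% to 8.05%). The UMIs were also unevenly spread. At P1 1 leukocyte held 39 of 108 Bgn UMIs, and at P7 320 of 3195 endothelial cells held 87.3% of theirs. When cells that passed the gates of several classes were kept in each of them, the log2 ratio of Bgn in the endothelium gate was 0.15 instead of 1.13. Without the cells with lung markers it was 1.18, with 190.2 CPM at P1 and 84.0 CPM at P7.

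**Figure D2:**
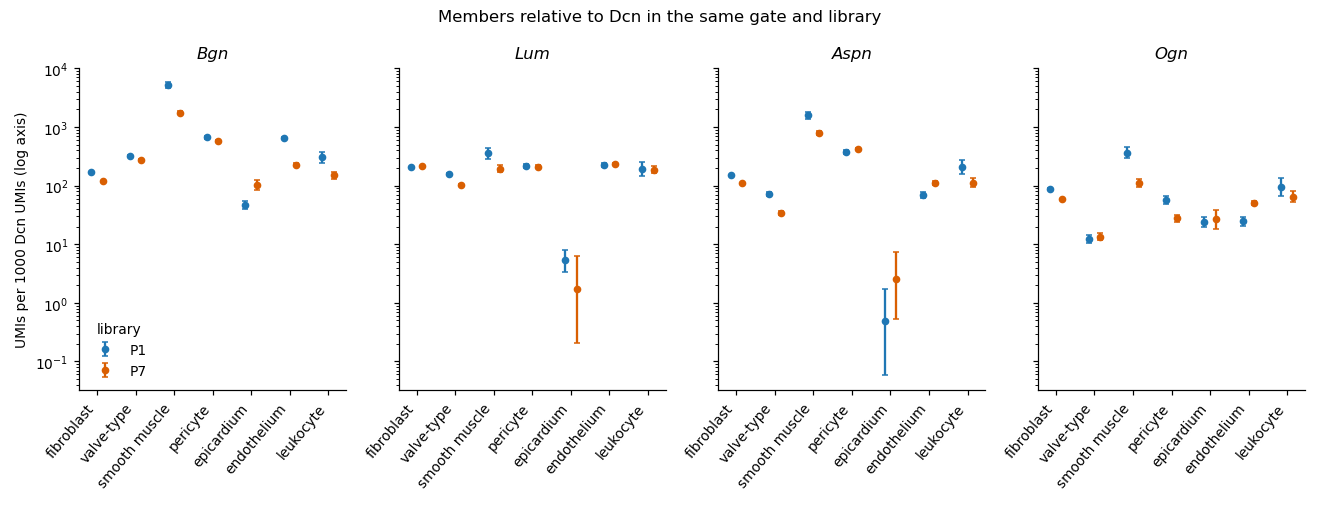
UMIs of Bgn, Lum, Aspn and Ogn per 1000 Dcn UMIs (y axis, log scale) in each of 7 gates (x axis), P1 in blue and P7 in orange, with exact 95% intervals. Lum keeps to about the same ratio in the fibroblast, pericyte, endothelium and leukocyte gates (188 to 233) and falls to 5.29 and 1.71 in the epicardium gate, and Bgn reaches 5140 and 1749 in the smooth muscle gate.

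Aspn, a class I protein with an aspartate-rich stretch that lacks the attachment site typical of proteoglycans, was highest in fibroblasts and next in pericytes. Among fibroblasts it stood at 1021 CPM at P1 and 1377 CPM at P7 (log2 -0.43), and in the pericyte gate at 674 and 930 CPM (log2 -0.47). Smooth muscle held 320 and 314 CPM, a difference within the counting interval (log2 0.03, interval -0.13 to 0.18). The summed level of the valve-type gate went the other way from the fibroblasts, with 627 CPM at P1 and 464 CPM at P7 (log2 0.43, interval 0.28 to 0.60). In that gate the Aspn UMIs were unevenly spread at P1, where 9 of 88 cells held 67.6% of them. The median valve-type cell was instead higher at P7, at 75.0 CPM at P1 and 244 CPM at P7. After thinning, 35.2% and 47.1% of valve-type cells had an Aspn UMI, with overlapping intervals. The epicardium gate held 2 Aspn UMIs at P1 and 3 at P7, although the same cells carried 4160 and 1172 Dcn UMIs, and without the cells with lung markers it held 1 and 3.

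The class II genes Fmod and Prelp, both collagen-binding proteins that are abundant in tendon and cartilage, were both highest in the valve-type gate, and their levels there were more than 2-fold higher at P7. Fmod stood there at 584 CPM at P1 (785 UMIs) and 1200 CPM at P7 (1338 UMIs), 2.05-fold higher at P7 (log2 -1.04, interval -1.17 to -0.91). Prelp stood at 339 CPM (456 UMIs) and 762 CPM (849 UMIs), 2.24-fold higher at P7 (log2 -1.16, interval -1.33 to -0.9998). The valve-type gate exceeded the fibroblast gate for Fmod by 23.9-fold at P1 and 434-fold at P7. The P1 excess was reduced by fibroblast-gate cells with Wif1 or Scx UMIs, which held 319 of the 395 Fmod UMIs of that gate. The other fibroblasts held Fmod at 5.16 CPM at P1 and 2.26 CPM at P7. For Prelp, which fibroblasts also carried at 182 and 260 CPM, the excess was 1.86-fold and 2.93-fold. After thinning, 46.6% of valve-type cells at P1 and 70.6% at P7 had an Fmod UMI, against 0.32% and 0.24% of leukocytes. The unthinned shares were 75.0% and 91.4% of valve-type cells, at median depths of 14500 and 15929 UMIs, and 0.62% and 1.09% of leukocytes.

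Fmod and Prelp are neighbours on chromosome 1 within 138 kb (GRCm38, Prelp chr1:133910304-133921414 on the minus strand and Fmod chr1:134037254-134048277 on the plus strand). Their upstream sequences are shown because these neighbours shared the valve-type gate as their highest. They are the 250 bases before the RefSeq start in GRCm38.p6 (chr1:134037004-134037253 for Fmod, plus strand, and chr1:133921402-133921651 for Prelp, minus strand), written 5′ to 3′. Capitals mark E-boxes (CANNTG, which reads the same on both strands), the motif bound by basic helix-loop-helix factors such as Scx.
Fmod: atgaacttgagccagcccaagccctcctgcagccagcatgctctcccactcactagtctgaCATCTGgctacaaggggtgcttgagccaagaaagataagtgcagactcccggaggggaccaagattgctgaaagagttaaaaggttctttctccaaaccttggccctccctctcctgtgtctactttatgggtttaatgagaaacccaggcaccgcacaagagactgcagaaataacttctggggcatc
Prelp: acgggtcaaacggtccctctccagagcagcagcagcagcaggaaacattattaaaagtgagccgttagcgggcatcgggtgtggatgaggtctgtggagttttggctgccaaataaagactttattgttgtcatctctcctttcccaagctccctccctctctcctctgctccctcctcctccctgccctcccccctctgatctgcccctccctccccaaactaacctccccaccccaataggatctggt

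The Fmod window held 1 E-box, CATCTG, whose first base lay at -189, and the Prelp window held none. The reference table gave windows for 7 of the 9 members, of which 4 held an E-box, while 66.2% of all 32851 windows of the same length held at least 1. Such a match describes letters only.

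Among the members, Fmod had the largest difference between the ages in the fibroblast gate. It stood at 24.4 CPM at P1 (395 UMIs) and 2.75 CPM at P7 (93 UMIs), 8.84-fold higher at P1 (log2 3.14, interval 2.82 to 3.49). The Fmod UMIs were confined to few cells, since 10.9% of fibroblasts at P1 and 3.79% at P7 had any, and at P1 the 95 highest of 944 cells held 98.0% of them. Of the 395 UMIs at P1, 319 lay in the 80 cells that also held a UMI of Wif1 or Scx, the valve-type markers, without passing the valve-type gate. The 864 remaining cells held 76 UMIs (5.16 CPM), against 75 UMIs (2.26 CPM) in 1891 cells at P7, and the log2 ratio without the Wif1- or Scx-bearing cells was 1.19. At both ages Fmod was thus low in fibroblasts without valve-type markers. After the valve-type gate, the highest was the epicardium, with 177 CPM at P1 (125 UMIs) and 257 CPM at P7 (67 UMIs), found in 27.7% and 28.6% of its cells after thinning (76.6% and 81.0% unthinned). Without the cells with lung markers Fmod stood there at 283 and 327 CPM.

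Lum, the keratan sulphate proteoglycan best known from the cornea, was close to Dcn in its ratio between the ages in fibroblasts and unlike it in the valve-type and epicardium gates. Fibroblasts held it at 1401 CPM at P1 and 2731 CPM at P7, 1.95-fold higher at P7 (log2 -0.96, interval -0.98 to -0.94). In the valve-type gate the levels were 1357 and 1404 CPM, with an interval that included 0 (log2 -0.05, interval -0.15 to 0.05). In summed CPM the valve-type gate did not differ from the fibroblasts at P1 beyond counting error. At P7 it lay below them (log2 of valve-type over fibroblast -0.96, interval -1.03 to -0.89). The median cell was lower in the valve-type gate in both libraries, at 724 against 1329 CPM at P1 and 965 against 2579 CPM at P7. At P1, 9 of 88 valve-type cells held 37.1% of the Lum UMIs. In the epicardium gate Lum had 22 UMIs in 47 cells at P1 and 2 UMIs in 21 cells at P7. Per 1000 Dcn UMIs this was 5.29 and 1.71 Lum UMIs, whereas the leukocyte gate, the background class, held 192 and 188. The Upk3b-positive cells thus carried Dcn together with Bgn, Fmod, Ogn and some Prelp, and very little Lum or Aspn. After Dcn, Bgn was the highest member there, with 276 (P1) and 468 CPM (P7), while Prelp had 60.9 and 65.2 CPM. Leaving out the cells with lung markers gave 349 and 590 CPM for Bgn, and 48.6 and 42.2 CPM for Prelp. Without the cells with lung markers the gate held 8 Lum UMIs at P1 and 0 at P7, beside 1209 and 795 Dcn UMIs. The P1 excess of Lum in this gate (log2 1.73) had an interval that reached 0, and it was -2.11 when cells of several gates were kept in each.

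Omd, a keratan sulphate proteoglycan known from bone, was scarce. Fibroblasts held 51 UMIs (3.15 CPM) at P1 and 262 UMIs (7.75 CPM) at P7, 2.44-fold higher at P7 (log2 -1.29, interval -1.76 to -0.86), and it was found in 4.77% and 11.6% of the cells unthinned. After thinning the shares were 0.43% and 0.88% of fibroblasts against 0% (exact upper limit 1.19%) and 0.24% of leukocytes, with intervals that overlapped, so the share of cells did not set the gates apart at this depth. With cells thinned to 2000 UMIs the log2 ratio was -0.99, just under 2-fold. Kera, the second corneal member, was nearly absent, with 5 UMIs in all kept cells at P1 and 36 at P7. The valve-type gate held 2 of them at P1 (1.49 CPM) and 23 at P7 (20.6 CPM). A single P7 cell carried 18 of the 23, so that the log2 ratio of -3.50 (interval -6.92 to -1.78) rests largely on 1 cell. No Kera UMI was found in the endothelium gate, where the exact upper limit of 0 UMIs was 0.192 CPM at P1 and 0.13 CPM at P7.

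Ogn, the class III member, had the widest gap between the fibroblasts and the next gate among the 3 members highest there. Its levels in the fibroblast gate were 608 CPM at P1 and 727 CPM at P7 (log2 -0.26, interval -0.29 to -0.23), the smallest difference between the ages of the 8 members measured there. The next gates were the epicardium at P1 (142 CPM) and the valve-type gate at P7 (184 CPM), so that the fibroblast level was 4.29-fold above the next gate at P1 and 3.95-fold above the valve-type gate at P7. After thinning, 52.7% of fibroblasts at P1 and 66.2% at P7 had an Ogn UMI (82.1% and 95.9% unthinned), against 2.27% and 3.07% of leukocytes (4.64% and 5.23% unthinned). Without the cells with lung markers the epicardium gate held Ogn at 190.0 CPM at P1 and 111 CPM at P7. In the endothelium gate Ogn (6.57 and 17.8 CPM) was not above the leukocyte gate (10.95 and 24.3 CPM) in either library, and the intervals overlapped at P1. The same held for Aspn, with 18.5 and 39.1 CPM in endothelium against 23.8 and 42.5 CPM in leukocytes and overlapping intervals in both libraries.

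Ogn and Aspn lie with Omd in a cluster of 80.1 kb on chromosome 13 (GRCm38, Aspn chr13:49544443-49567565, Omd chr13:49582462-49592822 and Ogn chr13:49608046-49624501, all on the plus strand), which Cenpp overlaps on the minus strand. The upstream windows of Ogn (chr13:49607765-49608014) and Aspn (chr13:49544193-49544442), plus strand, GRCm38.p6, RefSeq start, are shown because these neighbours were highest in the fibroblast gate in both libraries. Capitals again mark E-boxes.
Ogn: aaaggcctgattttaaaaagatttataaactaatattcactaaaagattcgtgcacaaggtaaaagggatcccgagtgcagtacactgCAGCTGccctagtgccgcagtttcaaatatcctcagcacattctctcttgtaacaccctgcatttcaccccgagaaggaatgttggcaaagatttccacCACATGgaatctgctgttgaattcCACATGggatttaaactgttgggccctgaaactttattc
Aspn: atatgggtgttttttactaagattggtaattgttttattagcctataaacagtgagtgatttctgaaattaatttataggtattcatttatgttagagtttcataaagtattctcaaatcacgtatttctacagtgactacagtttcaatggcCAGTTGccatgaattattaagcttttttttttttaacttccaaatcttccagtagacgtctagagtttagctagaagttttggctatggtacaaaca

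The Ogn window held 3 E-boxes, 1 CAGCTG at -162 and CACATG at -63 and at -39, and the Aspn window 1, CAGTTG at -97. Both windows also held TATAAA on at least 1 strand, as did 12.4% of all windows. The remaining members lie in a cluster of 134 kb on chromosome 10 (Dcn chr10:97479609-97518143, Lum chr10:97565128-97572703 and Kera chr10:97606879-97613692, plus strand) and, for Bgn, at chrX:73483602-73495933 on the plus strand. In neither of these 2 clusters did the neighbours share every gate. In the epicardium gate Dcn stood at 5896 and 4494 CPM and Lum at 31.2 and 7.67 CPM. Ogn stood there at 142 and 119 CPM, beside 2 and 3 UMIs of Aspn. Kera had 0 UMIs in that gate, but only 5 and 36 in all kept cells.

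**Figure D3:**
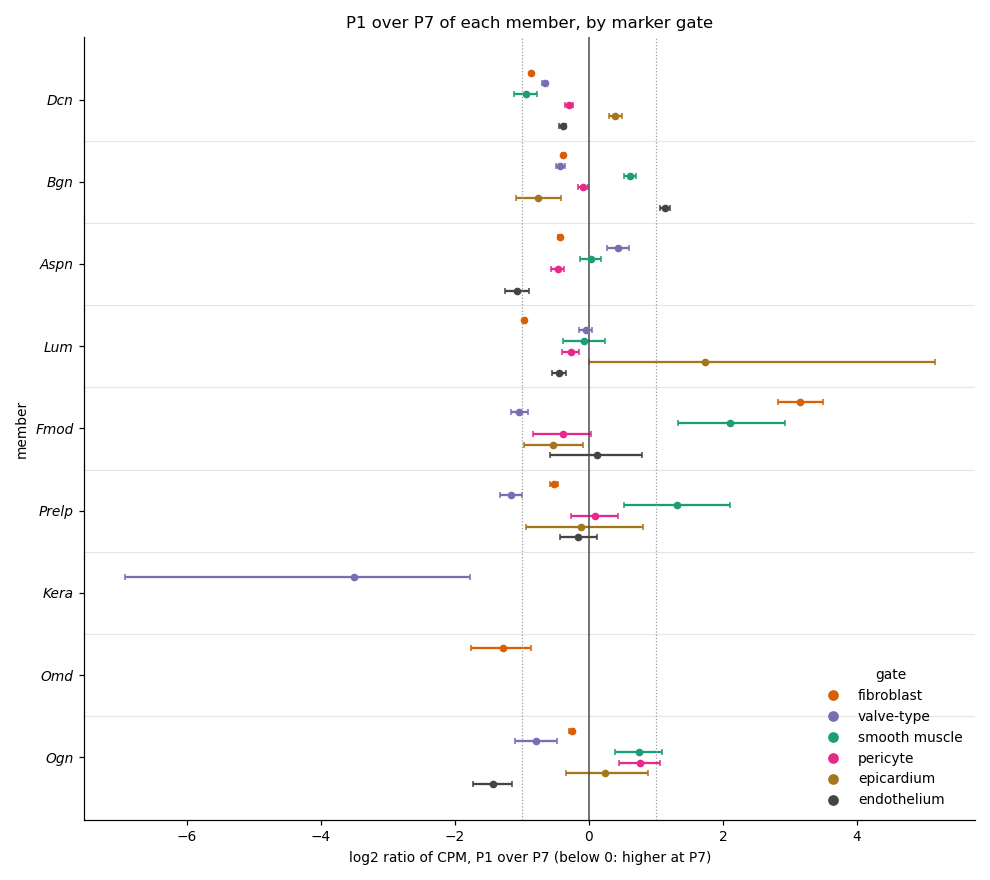
Log2 ratio of CPM of P1 over P7 (x axis; values below 0 are higher at P7) for each member (rows), coloured by gate, with exact 95% intervals for counting error; combinations with fewer than 20 summed UMIs are left out and dotted lines mark 2-fold. In the fibroblast gate 7 of 8 members lie below 0, with Fmod at 3.14, and in the valve-type gate Fmod and Prelp lie at -1.04 and -1.16.

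Counted over the gates, few members were past 2-fold between the ages. In the fibroblast gate 1 of 8 was higher at P1 (Fmod, beside 6.09% of 13700 genes) and 1 of 8 higher at P7 (Omd, beside 4.35%). The median log2 ratio of the 8 members was -0.47, while that of all genes was 0.03. In the valve-type gate 0 of 8 were higher at P1 (4.35% of genes) and 3 of 8 at P7 (3.88%), namely Fmod, Prelp and Kera. The Kera call rests largely on 1 P7 cell that held 18 of 23 UMIs. The median of the members in the valve-type gate was -0.72 and that of all genes 0.03. In the smooth muscle gate 2 of 7 were higher at P1 (4.86%), Fmod with 40 against 23 UMIs and Prelp with 29 in each library, and 0 of 7 at P7 (3.52%). Both calls rest on few cells, since 1 P1 cell held 35 of the 40 Fmod UMIs and 1 held 21 of the 29 Prelp UMIs. In the pericyte gate 0 of 7 passed in either direction (3.56% of genes at P1 and 2.6% at P7). In the epicardium gate 1 of 6, Lum, was higher at P1 (6.65%) and 0 at P7 (5.27%), and without the cells with lung markers Lum had too few UMIs to be counted. In the endothelium gate 1 of 7, Bgn, was higher at P1 (5.23%), and 2 of 7 were higher at P7 (4.26%), Ogn and Aspn, whose levels were not above those of leukocytes. Over all kept cells, without gates, Dcn stood at 3329 CPM at P1 and 6681 CPM at P7 (log2 -1.005) and Lum at 675 and 1434 CPM (log2 -1.09). Fmod went the other way over all kept cells, with 44.2 CPM at P1 and 28.6 CPM at P7 (log2 0.63). These whole-library values also depend on how many fibroblasts and other cells each library held.

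Between the classes, 2 of 8 members at P1 were at least 2-fold higher in the valve-type than in the fibroblast gate (Bgn and Fmod, beside 8.81% of genes). At P7 the count was 4 of 9 (Bgn, Fmod, Prelp and Kera, beside 10.7%), with Kera resting largely on 1 cell. In the opposite direction 1 of 8 members at P1 was at least 2-fold lower in the valve-type gate (Ogn, beside 12.2%) and 2 of 9 at P7 (Ogn and Aspn, beside 11.9%). The Ogn difference was 5.69-fold at P1 and 3.95-fold at P7. In both libraries Bgn and Fmod thus lay on the valve side and Ogn on the fibroblast side. The count on the fibroblast side at P1, 1 of 8, was near the share over all genes. It therefore describes Ogn and not the members as a set.

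The Kcnj8 gate held cells of unlike composition. Of its cells, 138 of 184 at P1 and 290 of 328 at P7 had at least 3 of 5 further pericyte markers. In these cells Aspn stood at 717 and 1027 CPM, against 674 and 930 CPM in the whole gate. Bgn stood at 1032 and 1036 CPM, against 1203 and 1275 CPM in the whole gate. Dcn stood at only 661 and 532 CPM, and its log2 ratio was 0.31 in place of -0.30. The 46 and 38 cells with fewer pericyte markers held Dcn at 5150 and 10424 CPM. They also held Bgn at the higher level, 1703 and 2436 CPM, but Aspn at the lower, 546 and 460 CPM. Most of the gate's Dcn UMIs thus lay in the cells with few pericyte markers, 2546 of 3505 at P1 and 5032 of 6280 at P7. Most of its Aspn and Bgn UMIs lay in the more numerous cells with those markers, although only Aspn had its higher CPM there.

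Within the fibroblast gate the members divided the subsets unevenly. Cells with Pi16 and Clec3b (adventitial-type, 62 at P1 and 882 at P7), with Col26a1 and Dpep1 (myocardial-type, 422 and 236) and with Gdf10 and Wisp1 (elastin-rich, 16 and 23) were compared, the names standing for the marker pairs alone, while cells in more than 1 subset (71 and 358) or in none (373 and 429) were left aside. Dcn was highest in the adventitial-type cells, at 9075 and 13707 CPM, and lowest in the elastin-rich cells, at 3241 and 6914 CPM. Lum was likewise highest in the adventitial-type cells, at 1942 and 2978 CPM. Bgn was highest in the elastin-rich cells with 2880 and 3310 CPM against 1238 and 1394 CPM in the adventitial-type cells. Ogn was highest in the myocardial-type cells, at 748 and 897 CPM, and lowest in the elastin-rich cells, at 247 and 312 CPM. Prelp had 2 UMIs (7.60 CPM) in the elastin-rich cells at P1 and 34 (87.7 CPM) at P7, against 250 and 300.5 CPM in the adventitial-type cells. For Dcn, Lum, Ogn and Prelp the order of the 3 subsets was the same in both libraries, and for Bgn the lower positions were exchanged, with 981 and 1517 CPM in the myocardial-type cells. The elastin-rich cells also carried the pericyte marker Rgs5 at 312 CPM at P1 and 38.7 CPM at P7, against 9.68 and 9.80 CPM in the adventitial-type and 7.92 and 20.3 CPM in the myocardial-type cells, and its part in the Bgn level was not tested.

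**Figure D4:**
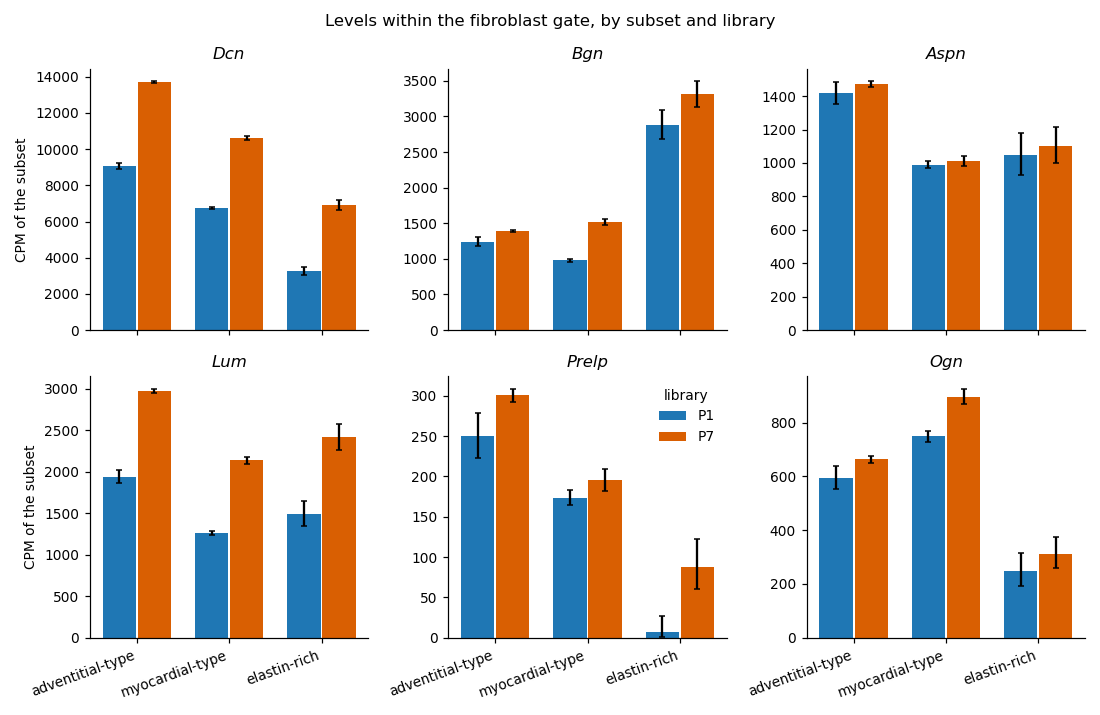
CPM (y axis, from 0) of 6 members in 3 subsets of the fibroblast gate (x axis), P1 in blue and P7 in orange, with exact Poisson 95% intervals. Dcn and Prelp are lowest in the elastin-rich subset, Bgn is highest there (2880 and 3310 CPM), and Ogn is highest in the myocardial-type subset (748 and 897 CPM).

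Dcn was higher at P7 in each of the 3 subsets, and so was Lum, with myocardial-type Dcn at 6751 CPM at P1 and 10628 CPM at P7. Aspn differed little between the ages within these subsets, with 1418 and 1472 CPM in the adventitial-type, 990 and 1010 CPM in the myocardial-type and 1049 and 1104 CPM in the elastin-rich cells. In the cells left aside it was higher at P7, with 1187 and 1630 CPM in cells of more than 1 subset and 927 and 1084 CPM in cells of none. The fibroblast gate as a whole mixed these groups in unlike shares, with 62 adventitial-type cells of 944 at P1 and 882 of 1928 at P7. The part of this makeup in the ratios of the whole gate was not tested. Single fibroblasts carried several members at once. With 2000 UMIs per cell, a median of 4 of the 9 members was found per fibroblast at P1 and of 5 at P7.

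The pattern of each member over 14 points, 7 gates in 2 libraries, was also compared with that of all other genes as a description. These points share libraries, and any free RNA of a library is shared by its gates. The genes most like Dcn were Mettl1, Olfml1 and Sfrp1 (r from 0.95 to 0.96), those most like Lum were Gpm6b, Postn and Sox9 (r 0.97 each), and those most like Bgn were P3h3, Gm6277 and Cdh2 (r from 0.96 to 0.97). Fmod was most like Fam180a, Tst and Angptl7 (r 0.92 each), Prelp like Serpinf1, Nfix and Dnajc25 (r 0.96 each) and Ogn like Col14a1, Thbs3 and Samd4b (r from 0.95 to 0.96). Aspn was most like Cyth3, Sobp and Adamts12 (r from 0.95 to 0.96). The scarce Kera was most like Epyc, Ucma and Comp (r from 0.85 to 0.94), and Omd like Dcn, Sfrp1 and Prelp (r from 0.92 to 0.95). For Kera this rests largely on 1 point, the P7 valve-type gate at 20.6 CPM, where 1 cell held 18 of 23 UMIs. Its next highest point was the P1 valve-type gate at 1.49 CPM. Among the members themselves the most similar were Dcn with Prelp and Dcn with Omd (r 0.95 each), and the least similar were Fmod with Aspn (r 0.14).

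The genes that build and bind these proteins were read from lists. Of 27 genes of glycosaminoglycan synthesis, 23 were measured in the fibroblast gate, with 0 past 2-fold towards P1 and 1 towards P7, where 6.09% and 4.35% of all genes of that gate were past it. The latter was Chst7, a sulphotransferase, at 11.5 CPM at P1 and 27.3 CPM at P7 (log2 -1.24). The next largest differences were those of the chondroitin synthesis enzymes Csgalnact1 (14.1 and 7.78 CPM, log2 0.86) and Chsy1 (53.4 and 32.5 CPM, log2 0.71), of the sulphotransferase Chst1 (13.2 and 23.1 CPM, log2 -0.80) and of Xylt1 (7.54 and 11.6 CPM, log2 -0.61), which starts the chains. Thus 10 genes of this list were higher at P1 and 13 at P7, with a median log2 ratio of -0.04. Of 23 collagen and receptor partners, 22 were measured, 17 of them higher at P7 and 0 past 2-fold in either direction, with a median of -0.24 against 0.03 for all genes. The largest differences were those of the collagens Col3a1 (6438 and 11406 CPM, log2 -0.83), Col6a3 (log2 -0.75) and Col14a1 (log2 -0.67), of the receptor Tlr4 (8.59 and 14.2 CPM, log2 -0.72) and of Lrp1 (log2 -0.37).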

How the data were processed

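The authors deposited, for each of the 2 libraries, a matrix of raw UMI counts per gene and barcode, without normalisation. Per the labels the libraries were made with a 10x Genomics 3′ kit, and the submitters' processing notes name Cell Ranger 3.1.0 and the build mm10 (GRCm38). All values here were computed from those counts with python 3.11.15, numpy 2.4.6, scipy 1.17.1 and pandas 2.3.3, and figures were drawn with matplotlib 3.10.9.

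Barcodes with 200 to 8000 genes and at most 20% mitochondrial UMIs were kept. No doublet caller was run. Gates asked for at least 2 UMIs of a marker, or 1 each of Wif1 and Scx, and the 212 P1 and 403 P7 cells that passed the gates of several classes were left out, except that a cell passing the valve-type and fibroblast gates was valve-type. UMIs were summed per gate and library, which stands for 1 sample, and 0.5 counts were added to each sum for log2 ratios. Intervals are exact (Poisson for sums, Clopper-Pearson for shares, conditional binomial for ratios) at 95% and cover counting error only. Because a pool of 3 hearts gave 1 library, they say nothing of the spread between animals. The ratio and its interval were run on simulated independent Poisson counts, the model that the interval assumes. That run left out the gathering of UMIs in single cells, so it cannot show how the intervals behave where it occurs. Depth was 63585504 UMIs at P1 and 98346195 at P7 over all barcodes.

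The members, gates and gene lists were chosen with earlier results of these data known. Named genes were all members, further family genes with at least 20 UMIs in a gate, the 5 genes of each list with the largest ratio in the fibroblast gate (minimum 50 UMIs in either library), and for each member the 3 genes with the highest Pearson r of log2(CPM + 1) among those with at least 50 CPM in a gate. Gene positions are from GENCODE (GRCm38) and upstream windows from RefSeq (GRCm38.p6). Alternatives changed the mitochondrial limit, the gates, the scaling, the depth, the added counts and the UMI minimum.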

Additional observations from a re-analysis of the deposited data

Results flagged for a closer look

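For 6 members the log2 ratio of P1 over P7 lay on opposite sides of 0 in different gates, each with an interval that left out 0. The differences between gates were not tested, since each age had 1 library. The gap was widest for Fmod, whose ratio in the fibroblast gate exceeded that in the valve-type gate by 4.18 on the log2 scale, and without fibroblasts that held Wif1 or Scx UMIs the fibroblast ratio was 1.19 against -1.04 in the valve-type gate. For Prelp the smooth muscle gate exceeded the valve-type gate by 2.48, with 29 UMIs per library in smooth muscle, 21 of them in a single cell at P1. For Ogn the pericyte gate exceeded the endothelium gate by 2.19, where the endothelial level was not above that of leukocytes. The remaining gaps were 1.90 for Bgn (endothelium over epicardium), 1.51 for Aspn (valve-type over endothelium) and 1.33 for Dcn (epicardium over smooth muscle). For Bgn, 3 of 21 epicardium cells held 50.8% of the P7 UMIs. Its epicardial ratio was -0.06 in place of -0.76 with the fibroblast gate on a panel of markers. For Aspn, 9 of 88 valve-type cells held 67.6% of the P1 UMIs, and the median valve-type cell was higher at P7 (75.0 and 244 CPM). Endothelial Aspn (39.1 CPM) and smooth muscle Dcn (391 CPM) at P7 were within the intervals of leukocytes (42.5 and 377 CPM), and 1 cell held 418 of the 1540 Dcn UMIs of smooth muscle.

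Barcodes with fewer than 200 genes, which entered no comparison, held 1255 UMIs of the 9 members in 2253 barcodes at P1 and 142 UMIs in 160 barcodes at P7. Mitochondrial genes made up 88.3% and 42.4% of all UMIs in these barcodes.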

How the results depend on the processing

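No paired analysis was possible because the labels give no replicate numbers and each age had 1 library. Under 16 other settings and 2 more chosen after seeing the data (the fibroblast gate without cells with Wif1 or Scx UMIs, and the pericyte gate with 3 further markers), 36 of 52 ratios of members kept their direction under every setting that gave a value. In the fibroblast gate all 8 measured members kept theirs. With cells thinned to 2000 UMIs, 0 members were past 2-fold towards P7 in that gate instead of 1 (Omd, log2 -0.99). With a minimum of 1 summed UMI, 2 members were past 2-fold towards P1, since Kera with 3 UMIs in each library then entered. The log2 ratio of Lum in the epicardium gate was -2.11 with cells of several gates kept in each, against 1.73 as reported; the cause was not tested. In the valve-type gate Fmod was past 2-fold in 16 of 18 settings and Prelp in 17. In the endothelium gate Bgn ranged from 0.15 (cells of several gates kept in each) to 1.65 (fibroblast gate on a panel of markers), and Dcn and Lum were at 0.43 and 0.19 with that panel in place of -0.39 and -0.44. In smooth muscle Prelp ranged from 0.10 with gates of at least 1 UMI to 1.82. In the pericyte gate Ogn was at -0.17 with gates of at least 1 UMI and Fmod at 4.47 with 3 further markers, from 20 UMIs at P1 and 1 at P7. Depth limits Kera, Omd outside the fibroblast gate and the epicardium gate with its 47 and 21 cells.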

Other observations

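Further genes of the family that were not among the 9 members also differed between gates. Ecm2, a matrix protein with leucine-rich repeats, stood at 68.3 CPM at P1 and 129 CPM at P7 in the fibroblast gate (log2 -0.92) and at 90.8 and 152 CPM in the valve-type gate. Podn (podocan) had its highest level in the epicardium gate, at 149 CPM (105 UMIs) and 88.2 CPM (23 UMIs), against 1.73 CPM (28 UMIs) and 3.07 CPM (104 UMIs) in fibroblasts. Without the epicardium cells with lung markers it stood there at 163 CPM (37 UMIs) and 105 CPM (20 UMIs). Chad (chondroadherin), a cartilage protein, had 44 UMIs (32.8 CPM) and 54 UMIs (48.4 CPM) in the valve-type gate. Epyc (epiphycan) had 77 UMIs (69.1 CPM) in the valve-type gate at P7. Optc (opticin) had 32 UMIs (20.2 CPM) and 29 UMIs (7.36 CPM) in smooth muscle. Tsku (tsukushi) stood at 9.94 and 16.6 CPM in fibroblasts. Podnl1 had 20 UMIs (5.35 CPM) in the leukocyte gate at P7.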
